A study of Mus musculus and Bos taurus with 6 samples.

Results

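The miR-181 family was described across small RNA libraries of the lactating mammary gland by taking every listed mature miRNA with the mouse or bovine prefix whose name begins with miR-181a, miR-181b, miR-181c or miR-181d. These were 14 of the 3243 distinct names in the lists, of which 10 stood among the 1750 lines of the mouse list (4 from the 5p arm and 6 from the 3p arm) and 5 among the 1539 lines of the bovine list (4 from the 5p arm and 1 from the 3p arm, under its mouse name). Mouse libraries (2) held total small RNA from the whole mammary gland of FVB/N females at day 12 of lactation. AGO2 libraries (2) held small RNA that co-precipitated from the same kind of tissue with Argonaute 2, using a monoclonal antibody. Bovine libraries (2) were made from mammary biopsies of Holstein cows in mid-lactation on a low-forage diet (forage to concentrate 46:54), each from a pool of 2 cows. By the paper, left and right #4 glands came from 2 primiparous mice, with the lymph node removed. The AGO2 libraries came from 2 animals. Which animal or gland gave each library was not given in the sources used here. Mouse and AGO2 libraries may therefore share animals, and the tests used no pairing. The p-values measure only the spread between these libraries.

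A miRNA hairpin is cut into a duplex of a 5p and a 3p strand. One strand, the guide, is mostly kept in an Argonaute protein such as AGO2, where its seed (nucleotides 2 to 8) directs the complex to messenger RNA, while the other, the passenger strand, is mostly lost. In the miR-181 family the 5p strand is the usual guide, and the family is best known for setting the sensitivity of developing T cells. In these lists the 4 guide arms shared 1 seed, which no other line of the mouse or the bovine list carried. The mouse guide arms are shown with the seed in capitals to let the family be read as 1 group of targeting sequences.
mmu-miR-181a-5p: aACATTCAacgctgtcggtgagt
mmu-miR-181b-5p: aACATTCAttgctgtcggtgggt
mmu-miR-181c-5p: aACATTCAacctgtcggtgagt
mmu-miR-181d-5p: aACATTCAttgttgtcggtgggt
miR-181b-5p and miR-181d-5p differed by a single substitution, C12T, with the base of miR-181b first and positions counted from the 5′ end. miR-181c-5p was miR-181a-5p with 1 base less, so that their edit distance was 1, while miR-181a-5p and miR-181b-5p differed at 3 positions (A9T, C10T and A21G). Reads that carry an error or are cut short can therefore be assigned to the wrong member, and the counting did not show how such reads were shared. The bovine lines began with the whole mouse sequence and ran 1, 1, 2 and 0 nt further for miR-181a, miR-181b, miR-181c and miR-181d.

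As listed, the passenger arms did not carry the seed of the guides, and fell into several seed groups of their own.
mmu-miR-181a-1-3p: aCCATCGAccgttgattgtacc
mmu-miR-181c-3p: aCCATCGAccgttgagtggacc
mmu-miR-181b-1-3p: cTCACTGAacaatgaatgc
mmu-miR-181b-2-3p: cTCACTGAtcaatgaatgcaaa
mmu-miR-181d-3p: cCCACCGGgggatgaatgtca
mmu-miR-181a-2-3p: aCCGACCGttgactgtaccttg
The 3p arms of miR-181a-1 and miR-181c shared a seed and differed at 2 positions outside it (T16G and T19G, with the base of miR-181a-1 first). The 3p arms of both miR-181b hairpins also shared a seed.

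RefSeq (GRCm38.p6) held all 10 mouse names, but the RefSeq sequences used here lacked the Mir181c hairpin. Distances and overlapping genes were taken from GENCODE, in which the family lay in 3 pairs of neighbouring hairpins. Mir181a-1 (chr1:137966455-137966541, plus strand) and Mir181b-1 (chr1:137966639-137966718, plus strand) were 97 bases apart, in an intron of the noncoding gene Gm4258 on the same strand and overlapping an exon of the noncoding RNA A430106G13Rik. Both also lay opposite an intron of the noncoding RNA Gm26936. Mir181a-2 (chr2:38852735-38852810, plus strand) and Mir181b-2 (chr2:38853830-38853918, plus strand) were 1019 bases apart, on the opposite strand to an intron of Nr6a1, which encodes a nuclear receptor, and Mir181b-2 also lay opposite an exon of the gene model Gm44144. Mir181d (chr8:84178716-84178787, minus strand) and Mir181c (chr8:84178873-84178961 in GENCODE, minus strand) were 85 bases apart in an intron of Nanos3, which encodes an RNA-binding protein of germ cells. The guide of Mir181a-1 and Mir181a-2 was the same sequence, and so was that of Mir181b-1 and Mir181b-2. The guide counts could therefore not be divided between chromosomes 1 and 2, whereas the passenger arms differ in sequence and were listed separately. For miR-181a, whether the start listed for miR-181a-2-3p (given below) allows a fair division of the passenger counts was not tested.
The hairpins of Mir181a-1 and Mir181a-2, with both RefSeq mature arms in capitals, show why only the passenger arm tells these loci apart.
Mir181a-1: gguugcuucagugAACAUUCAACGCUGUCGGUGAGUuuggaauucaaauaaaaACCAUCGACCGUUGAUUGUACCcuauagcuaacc
Mir181a-2: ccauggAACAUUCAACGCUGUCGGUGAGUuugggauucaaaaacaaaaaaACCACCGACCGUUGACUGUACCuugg
The listed sequence of miR-181a-2-3p began 3 nt downstream of the RefSeq arm in the Mir181a-2 hairpin (base 54 in place of base 51). The seed marked for it above is therefore that of the listed sequence, and it differs from the seed of the RefSeq arm. Of the 691 mouse names that could be placed in a RefSeq hairpin, 2 lay 3 nt or more away and 687 had the same first base. The listed miR-181b-1-3p had the RefSeq start and ended 2 nt earlier. What these differences did to the counts was not tested.

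Each mature miRNA has a raw read count in every library of its species, from the quantifier of miRDeep2. Counts summed to between 8391916 and 9299807 in mouse, 3909166 and 5041406 in AGO2 and 9402483 and 10613807 in bovine, and RPM, the reads of a miRNA scaled to a fixed library size of 1000000, were computed over these sums. For a miRNA with a count of 0, the upper limit of 3 counts corresponded to between 0.283 and 0.767 RPM. It takes in counting error alone, as the sources used here name no molecular identifiers. Markers of mammary epithelium (miR-141, miR-205 and the miR-200 group, 12 lines in mouse and 10 in bovine) summed to 160759 to 189470 RPM in mouse, 338807 to 368640 in AGO2 and 78087 to 80057 in bovine. Leukocyte markers (miR-142, miR-150, miR-155 and miR-223) summed to 1265 to 2125, 2351 to 2973 and 2554 to 3285 RPM in the same order, with 1 of the 8 mouse and 1 of the 7 bovine lines at 0. Endothelial markers (miR-126) summed to 24194 to 34265, 28819 to 29280 and 55972 to 62356 RPM. Erythroid markers, such as miR-451a (5 lines in mouse and 3 in bovine), summed to 6523 to 13373 RPM in mouse and 15557 to 32505 RPM in AGO2. In bovine they summed to 248 to 276 RPM, a sum that left out miR-451a, because no bovine line matched that name. In mouse miR-451a was the largest of these markers. The paper reports it in bovine at moderate to high abundance, so the erythroid sums cannot be compared between species. Markers of fibroblasts and contractile cells, such as miR-143, summed to 57408 to 76899, 38795 to 41969 and 67925 to 82882 RPM in the order above. Those of skeletal muscle summed to 164 to 213, 29.9 to 82.5 and 728 to 783 RPM. In these bulk samples fewer cells of a type and less RNA per cell cannot be told apart.

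The guide arms were abundant in the mouse gland and made up 6.63% ± 0.0562 (SD, n = 2) of all counted reads. miR-181a-5p supplied most of them, with 53482 and 56807 RPM in mouse libraries 1 and 2, and its mean of 55145 RPM was the fifth highest of the list. miR-181b-5p followed with 12462 and 8190 RPM. Both stood far above the other members, and miR-181b-5p differed more between the 2 libraries than miR-181a-5p did. miR-181c-5p was counted at 516 and 704 RPM and miR-181d-5p at 229 and 193 RPM. The order of the guides was thus miR-181a, miR-181b, miR-181c and miR-181d, with no overlap between neighbours.
Among the passenger arms, miR-181a-1-3p was by far the most abundant, with 542 and 551 RPM. It lay within the range of miR-181c-5p, so a passenger arm of this family was counted as often as one of its guides. miR-181c-3p reached 17.8 and 9.77 RPM. miR-181b-2-3p, at 6.02 and 6.20 RPM, lay within the range of miR-181b-1-3p, at 4.52 and 6.43 RPM. miR-181d-3p was counted 5 times and once, and miR-181a-2-3p once and not at all, so these arms were at or near the limit. Each read stands for a whole mature miRNA, so no length enters these levels, but the ligation and amplification of single sequences were not tested.

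**Figure D1:**
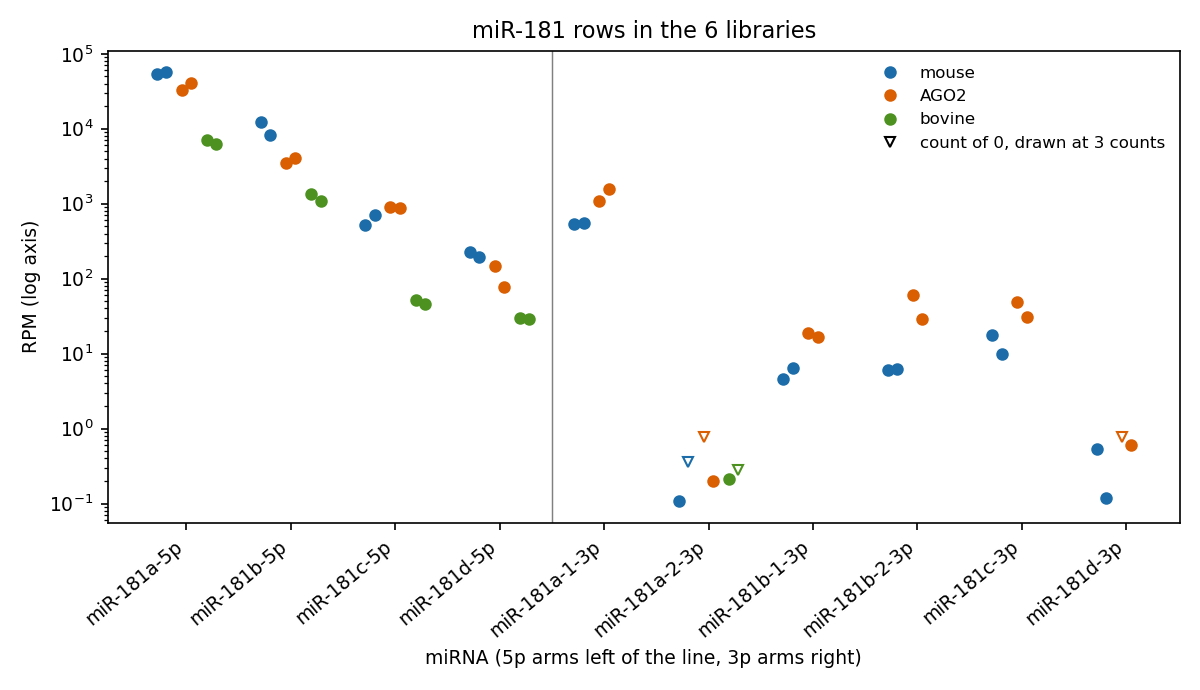
RPM of each miR-181 line (x axis) in each library, on a log axis, with 1 point per library and open triangles at the limit of 3 counts where the count was 0. miR-181a-5p is highest in all 6 libraries, the bovine guides lie below the mouse guides, and the AGO2 libraries lie above the mouse libraries for miR-181a-1-3p, miR-181b-1-3p, miR-181b-2-3p and miR-181c-3p.

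The first comparison asked which members were more or less represented among small RNA co-precipitated with AGO2 than in the whole gland. The series holds no control precipitate, so RNA carried down without AGO2 cannot be told apart from bound RNA. Of reads between 17 and 28 nt, 73.6% and 68.4% were counted in AGO2 libraries 1 and 2. In mouse libraries 1 and 2 these shares were 94.7% and 96.4%. By edgeR, miR-181b-5p was 2.42-fold lower in AGO2, and no other member passed that test. The values of the miR-181a and miR-181d guides also lay lower and those of the passenger arms higher, with adjusted p above the threshold. Of the 10 members, 7 passed the count minimum of the study's methods in 1 library or more and were tested, the excluded ones being the 3p arms of miR-181a-2, miR-181b-1 and miR-181d. Of all 299 miRNA tested, 15.4% were called higher in AGO2 and 12.4% lower (edgeR quasi-likelihood test, Benjamini-Hochberg adjusted p under 0.05), against 0 and 1 of the 7 members.
miR-181b-5p was counted at 3469 and 4120 RPM in AGO2 libraries 1 and 2, below both mouse libraries. Its log2 fold change was -1.28 (SE 0.47, edgeR adjusted p = 0.0496). This call was just inside the threshold and was lost in 5 of 9 alternative analyses. Among these were the fits without mouse library 1 (-0.99, edgeR adjusted p = 0.307), without AGO2 library 1 (-0.78, edgeR adjusted p = 0.440) and without AGO2 library 2 (-1.32, edgeR adjusted p = 0.263).
miR-181a-5p was counted at 32443 and 40316 RPM in AGO2. Both values lay below the mouse libraries, yet it remained the sixth most abundant miRNA by its mean. The log2 fold change was -0.44 (SE 0.33, edgeR adjusted p = 0.304), and it became 0.080 without AGO2 library 1.
miR-181d-5p, at 150 and 77.2 RPM, also lay below both mouse libraries, with a log2 fold change of -0.76 (SE 0.64, edgeR adjusted p = 0.355). miR-181c-5p was the exception among the guides. It was counted at 891 and 872 RPM in AGO2, above both mouse libraries, with a log2 fold change of 0.68 (SE 0.60, edgeR adjusted p = 0.382).
The median log2 fold change of the 4 guides was -0.60, and that of all 162 tested 5p arms was also -0.60.

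**Figure D2:**
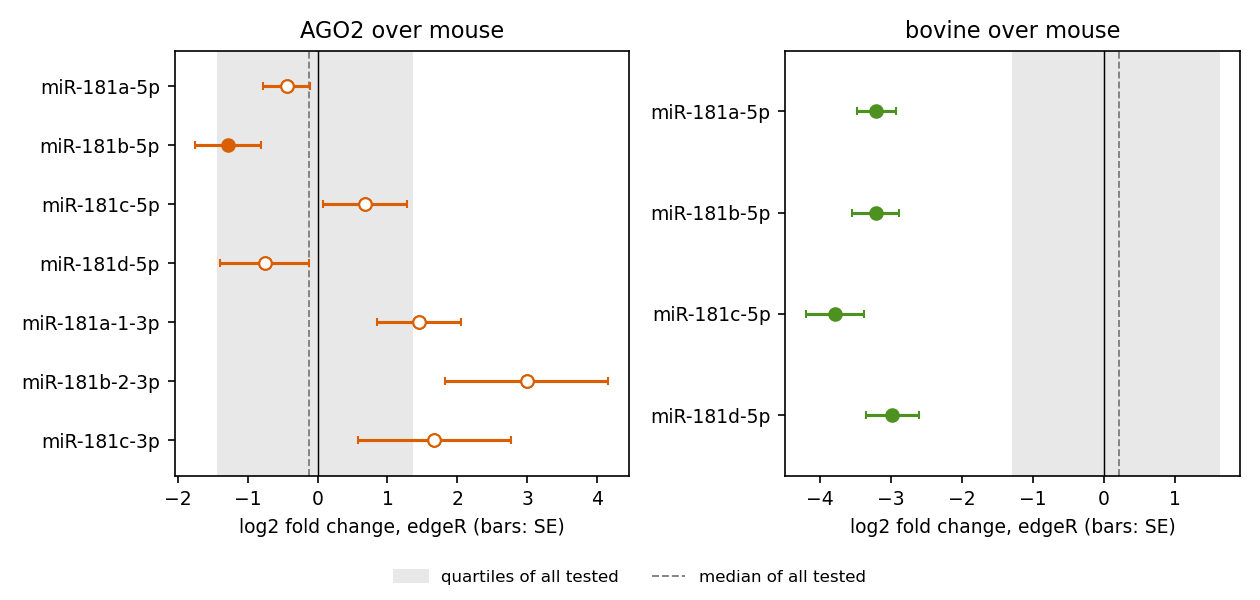
Log2 fold change of each tested member over mouse by edgeR, with the SE as bars, for AGO2 (left) and bovine (right). Filled points have an adjusted p under 0.05, the band spans the quartiles of all tested miRNA (-1.43 to 1.34 on the left, -1.28 to 1.62 on the right), and all 4 bovine guides lie below it.

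Within the family, the shares of the guides do not depend on how libraries are scaled to each other. miR-181a-5p made up 83.2% ± 4.25 of the guide reads in mouse and 88.3% ± 0.733 in AGO2 (SD, n = 2 each). miR-181b-5p made up 18.7% and 12.4% in the mouse libraries and 9.39% and 9.08% in the AGO2 libraries. The share of miR-181b was therefore lower in both AGO2 libraries than in either mouse library, while that of miR-181c moved the other way. miR-181c-5p took 0.773% and 1.07% in mouse and 2.41% and 1.92% in AGO2. Per 100 reads of miR-181a-5p, from which it differs by 1 base, miR-181c-5p gave 0.964 and 1.24 reads in mouse and 2.75 and 2.16 in AGO2. miR-181d-5p took 0.343% and 0.293% in mouse and 0.405% and 0.170% in AGO2, and these ranges overlapped. It gave 1.84 and 2.36 reads per 100 of miR-181b-5p in mouse and 4.31 and 1.87 in AGO2, so the ratio of these near-identical members differed more between the AGO2 libraries than between groups.
Summed over the family, the guides were counted at 66689 and 65894 RPM in mouse and at 36953 and 45385 RPM in AGO2, a difference of -0.69 on the log2 scale. The groups did not overlap, but 2 libraries against 2 allow no exact two-sided permutation p below the 0.333 obtained.

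**Figure D3:**
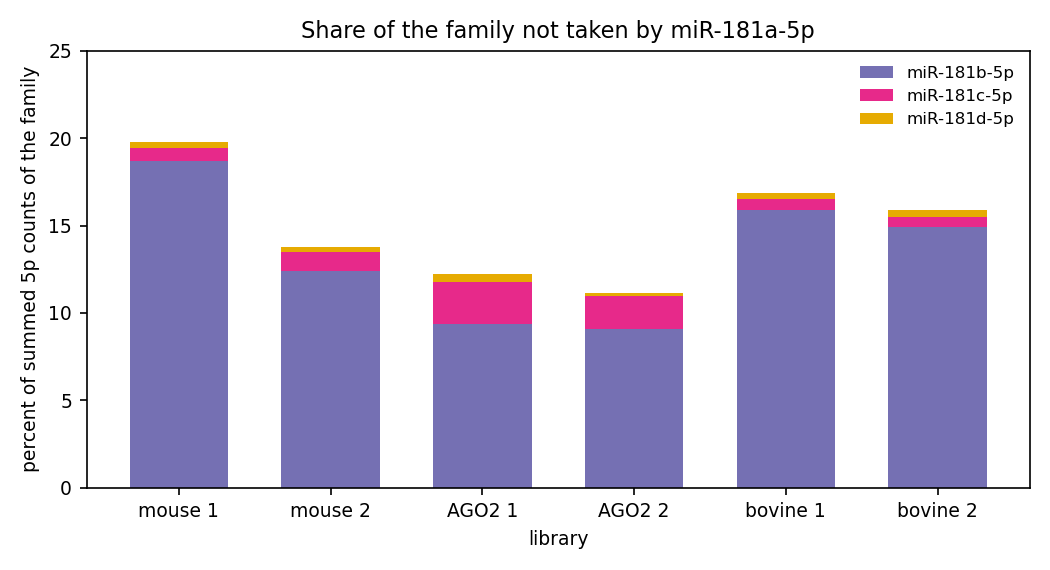
Percent of the summed 5p counts of the family (y axis, from 0) taken by miR-181b-5p, miR-181c-5p and miR-181d-5p in each library, stacked, with the rest taken by miR-181a-5p. The part of miR-181c-5p is widest in both AGO2 libraries, at 2.41% and 1.92%.

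The passenger arms lay higher in AGO2 in their values, and of the 3 tested 0 passed the threshold of edgeR. An unadjusted p under 0.05 was reached by 2 of them, and the DESeq2 test also called 2. Over all 299 miRNA, each of these looser rules called 69 higher in AGO2 (23.1%). 2 of the 3 arms, miR-181b-2-3p and miR-181c-3p, passed the count minimum through AGO2 library 1 alone, in the group where they were higher, so their entry into the test favoured a raised fold change. miR-181a-1-3p was counted at 1091 and 1581 RPM in AGO2, above both mouse libraries, with a log2 fold change of 1.45 (SE 0.60, edgeR adjusted p = 0.0725). miR-181b-2-3p reached 60.4 and 28.6 RPM in AGO2, with a log2 fold change of 2.99 (SE 1.17, edgeR adjusted p = 0.0622). With DESeq2 the adjusted p was 0.00855 for miR-181a-1-3p and 0.00881 for miR-181b-2-3p. The paper, which also used DESeq2, lists miR-181a-1-3p among the miRNA significantly enriched in AGO2. In edgeR miR-181a-1-3p passed without AGO2 library 1 (2.07, adjusted p = 0.0486), while leaving out any other library gave adjusted p between 0.175 and 0.316. miR-181b-2-3p passed without AGO2 library 2 (3.53, adjusted p = 0.00366), a fit that keeps the library through which it entered the test, and without a mouse library its edgeR adjusted p was 0.343 or 0.318. Without AGO2 library 1 it was below the count minimum and has no value. miR-181c-3p was counted at 48.6 and 30.7 RPM in AGO2, with a log2 fold change of 1.67 (SE 1.09, edgeR adjusted p = 0.246).
miR-181b-1-3p, which was too low for the test, was counted 74 and 85 times in AGO2, or at 18.9 and 16.9 RPM, above both mouse libraries. miR-181d-3p had 0 and 3 counts and miR-181a-2-3p 0 and 1, so a difference for these arms was not detectable in these counts. Whether the shifted start listed for miR-181a-2-3p lowered its counts was not tested.

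The ratio of passenger to guide within a library compared the arms directly. For miR-181a-1, 1.01 and 0.970 3p reads were counted per 100 reads of miR-181a-5p in mouse, and 3.36 and 3.92 in AGO2. The AGO2 ratios were 3.66-fold higher, a difference of 1.87 on the log2 scale that was large beside the SD of 0.0461 in mouse and 0.156 in AGO2. For miR-181b-1 the ratio was 0.0362 and 0.0786 in mouse and 0.546 and 0.409 in AGO2, a log2 difference of 3.15. For miR-181b-2 it was 0.0483 and 0.0757 in mouse and 1.74 and 0.693 in AGO2, a log2 difference of 4.18. Thus the 3p arms of the miR-181b hairpins, which share their seed and their guide, had ratios of like size in mouse, while in AGO2 that of miR-181b-2 was higher in both libraries. For miR-181c the ratio was 3.46 and 1.39 in mouse and 5.45 and 3.53 in AGO2, a log2 difference of 1.00. Mouse library 1 and AGO2 library 2 were almost level for miR-181c, so that this difference was of the order of the SD within mouse (0.932). In all 4 of these hairpins both AGO2 libraries lay above both mouse libraries, with an exact two-sided permutation p of 0.333 each, the smallest that 2 against 2 can give. The other hairpins, miR-181d and miR-181a-2, had too few 3p reads for this comparison. For miR-181d the ratio was 0.235 and 0.0617 in mouse and 0 and 0.771 in AGO2, so the groups overlapped. For miR-181a-2 each group had 1 library with a 3p count of 0. Since the miR-181a and miR-181b guides come from a pair of hairpins each, the ratios of miR-181a-1, miR-181b-1 and miR-181b-2 are lower bounds for the single hairpin.

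**Figure D4:**
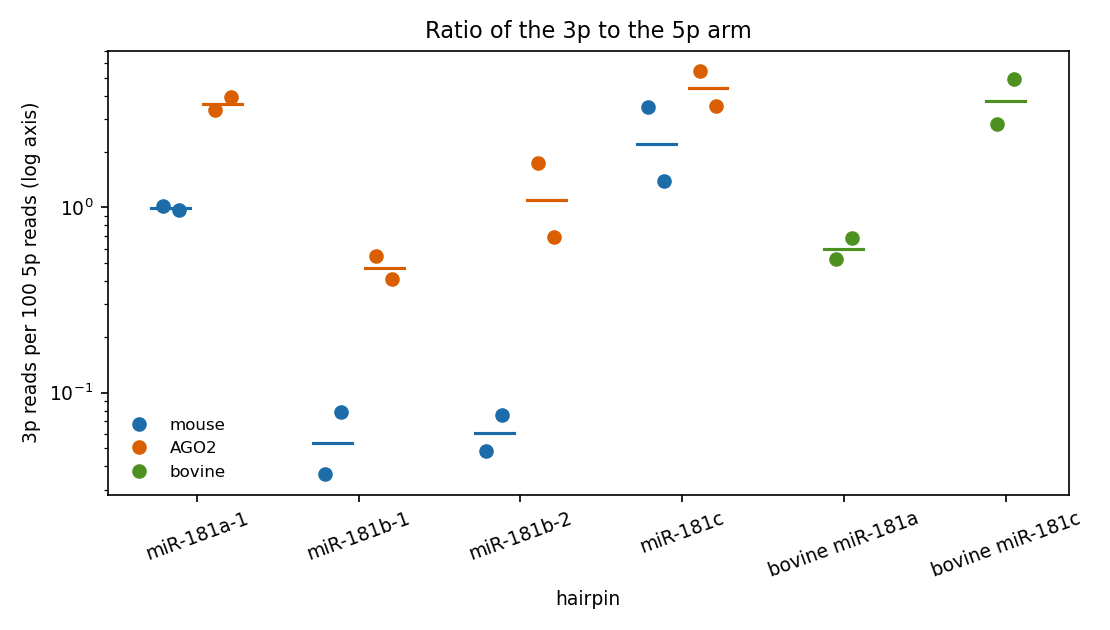
Number of 3p reads per 100 5p reads (y axis, log) for each hairpin, with 1 point per library and a bar at the geometric mean of 2 libraries. In the 4 mouse hairpins drawn the AGO2 points lie above the mouse points, with the smallest gap for miR-181c. miR-181a-2 and miR-181d, with few 3p reads, are not drawn.

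A shift of this kind was common among other miRNA. Of 73 mouse hairpins with both arms tested, the ratio of the minor to the major arm was higher in both AGO2 libraries than in both mouse libraries in 41 (56.2%) and lower in 19, with a median log2 difference of 1.26. In this order, counted from the lowest, miR-181c was at place 33, miR-181a-1 at 47 and miR-181b-2 at 62, so the family spread from near the median to the upper part. The minor arms had to pass the same count minimum in any library, so arms raised in AGO2 entered this set more readily. The marker sums given above also differed between mouse and AGO2. Of 9 epithelial lines tested with edgeR, 2 were called higher and 2 lower in AGO2, and 1 of 4 erythroid lines was called higher. The part of these markers in the values of the family was not tested.

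**Figure D5:**
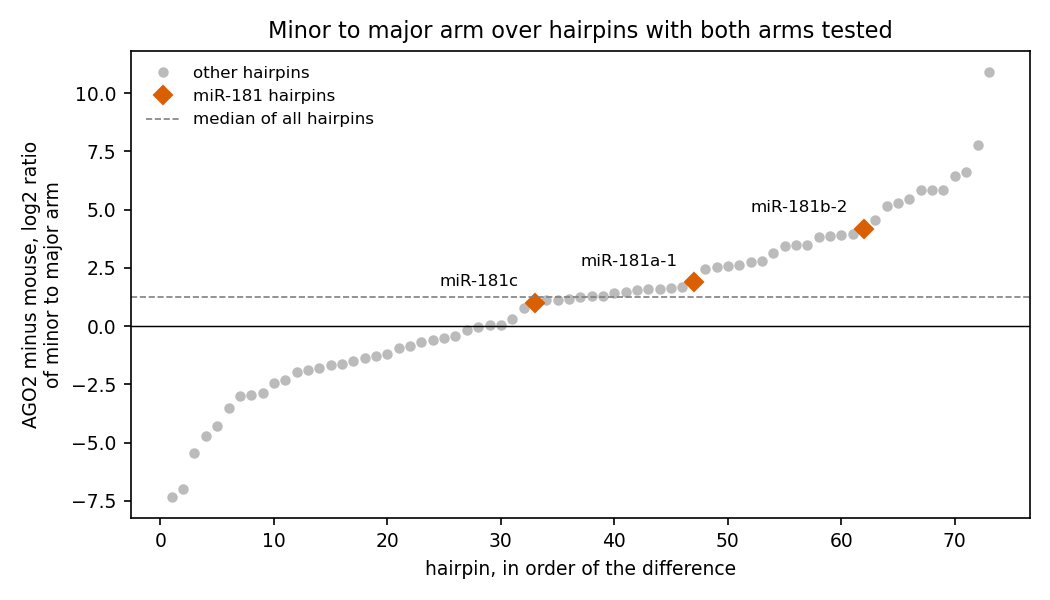
Difference between AGO2 and mouse in the log2 ratio of the minor to the major arm (y axis) for the 73 hairpins with both arms tested, in order of the difference (x axis), with 0.5 added to each count. The 3 miR-181 hairpins (diamonds) lie above 0, at 1.00, 1.87 and 4.17, and the dashed line is the median of 1.26.

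The second comparison asked how the family differed between the bovine and the mouse gland. All 4 guides were lower in bovine, by 7.85-fold to 13.8-fold. Of the 139 matched miRNA tested, 29.5% were called higher and 25.9% lower in bovine (edgeR quasi-likelihood test, Benjamini-Hochberg adjusted p under 0.05), against 0 and 4 of the 4 guides. Species, parity (primiparous mice and multiparous cows), RNA kit, biopsy or whole gland and pooling changed together, so they cannot be told apart in these values.
bta-miR-181a was counted at 7124 and 6195 RPM in bovine libraries 1 and 2 and was at place 37 by its mean. It lay far below both mouse libraries, with a log2 fold change of -3.20 (SE 0.27, edgeR adjusted p = 0.000748). bta-miR-181b was counted at 1361 and 1097 RPM, with a log2 fold change of -3.21 (SE 0.33, edgeR adjusted p = 0.00135). bta-miR-181c, at 52.6 and 46.0 RPM, had the lowest fold change of the family, -3.78 (SE 0.41, edgeR adjusted p = 0.00154). bta-miR-181d, at 30.1 and 29.1 RPM, had a log2 fold change of -2.97 (SE 0.37, edgeR adjusted p = 0.00182). In all 4 cases the groups did not overlap, and differences between the fold changes of the members were not tested. From the lowest fold change of all 139, miR-181c was at place 7, miR-181b at 10, miR-181a at 11 and miR-181d at 15. The median of the 4 was -3.20, beside 0.35 over all 87 tested 5p arms. The 4 calls held in all 12 alternatives.
The guide sum was 8567 and 7367 RPM in bovine, or 0.797% ± 0.0849 (SD, n = 2) of all counted reads. It was 8.32-fold below mouse, a log2 difference of -3.06 (exact two-sided permutation p = 0.333, the smallest possible).

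In contrast with its level, the composition of the family was much alike in both species. miR-181a took 83.2% and 84.1% of the guide reads in bovine, within the range of the mouse libraries, and miR-181b took 15.9% and 14.9%, also within it. The minor members differed slightly. miR-181c took 0.614% and 0.624% in bovine, below both mouse libraries, and miR-181d took 0.351% and 0.395%, above both. The order of the guides was the same in the 3 groups.
The summed epithelial markers were lower and the leukocyte and endothelial ones higher in bovine than in mouse, as given above, but the lists held members of opposite sign. Of 6 epithelial lines tested, 3 were lower in bovine and miR-205-5p was higher (log2 fold change 2.33, edgeR adjusted p = 0.00243). Of 5 leukocyte lines, miR-150-5p (2.58) and miR-155-5p (2.31) were higher and miR-223-3p (-1.53) was lower. Their part in the difference was not tested. No line of miR-126 could be matched between species, since the mouse names carry a copy letter.

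The passenger arms of bovine were listed under the prefixes of other species, among them mmu-miR-181a-2-3p, which was counted 2 times and not at all. hsa-miR-181a-3p, whose sequence equals that of mmu-miR-181a-1-3p, was counted 351 and 449 times, or at 37.3 and 42.3 RPM. It gave 0.524 and 0.683 reads per 100 of bta-miR-181a, below both mouse libraries. Matched by the first 18 nucleotides, this arm had a log2 fold change of -3.84 over mouse (SE 0.30, edgeR adjusted p = 0.00238), so guide and passenger were both lower in bovine. hsa-miR-181c-3p, listed with a start that differs from that of the mouse line, was counted 14 and 24 times and gave 2.83 and 4.92 reads per 100 of bta-miR-181c. This ratio lay within or above the mouse range, and it was above the ratio of miR-181a in both bovine libraries. ssc-miR-181d-3p was counted 2 times and not at all.

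The miRNA whose pattern was most like that of miR-181a-5p were taken by the distance between centred log2(RPM + 1) profiles over the 6 libraries, among 146 matched miRNA with at least 100 RPM in 1 library. Outside the family, miR-96-5p was nearest, at a distance of 0.578. It was counted at 565 and 994 RPM in mouse, 461 and 614 in AGO2 and 88.5 and 96.4 in bovine. miR-429-3p, of the epithelial miR-200 group, followed at 0.782, with 4359 and 7012 RPM in mouse, 3502 and 3147 in AGO2 and 843 and 893 in bovine. The next were miR-10a-5p (1.19), miR-708-5p (1.22) and miR-503-5p (1.23). The members themselves were at 1.06 for miR-181b, 1.12 for miR-181d and 1.76 for miR-181c, so 2 miRNA outside the family followed miR-181a-5p more closely than any member did. All profiles share the same 6 libraries and their depth.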

How the data were processed

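Small RNA was sequenced in 2 mouse, 2 AGO2 and 2 bovine libraries. After trimming of poly-A stretches, the authors assigned reads between 17 and 28 nt long to precursors of miRBase 20 with miRDeep2 (genomes GRCm38 and UMD3.1), and deposited unnormalised counts for each mature miRNA. The deposited normalised columns and lists of predictions were not used.

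RPM were computed over summed counts. The test was that of edgeR 4.0.16, run in R 4.3.3 (TMM, quasi-likelihood F test, Benjamini-Hochberg, adjusted p under 0.05), the SE being the log2 fold change divided by the square root of F. AGO2 was tested where 1 library or more had a count over 175, and bovine for miRNA of the same name and arm (229 pairs) that reached 100 RPM in 1 library or more. Names that differ by a copy letter were not paired. Log2 fold changes had a median over all tested miRNA of -0.12 for AGO2 and 0.21 for bovine, which moved to -0.01 and 0.03 with the size factors of DESeq2 1.42.0 and to -0.27 and 0.36 with library totals. Single values were compared with exact two-sided permutation tests (SciPy 1.17.1). All members were named or counted, together with the 5 miRNA of most similar pattern. The members and marker lists were chosen with earlier results of these data known. Sequences and positions came from the deposited lists, RefSeq (GRCm38.p6) and GENCODE, and bovine positions were not analysed here. Alternatives were DESeq2, other scalings, other filters, other matchings between species, RPM over sized reads and each library left out.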

Additional observations from a re-analysis of the deposited data

Results flagged for a closer look

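Some 3p arms of the family were counted in the bovine libraries under the prefix of another species, outside the members. hsa-miR-181a-3p had a mean of 39.8 RPM and hsa-miR-181c-3p a mean of 1.88 RPM, both above the limit that a count of 0 allows. No member line with the bovine prefix held a 3p arm.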

How the results depend on the processing

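No paired analysis was possible because the library numbers follow the order of deposition and the animal or gland behind each library is not given. With 2 libraries in a group, no ratio or sum can pass an exact permutation test, and the few counts of miR-181a-2-3p and miR-181d-3p allow no comparison. The bovine calls of the 4 guides kept their direction and their side of the threshold in all 12 alternatives. The log2 difference of the 3p to 5p ratio was at its lowest 0.34, for miR-181c. In each of the 4 hairpins both AGO2 libraries lay above both mouse libraries. Leaving out a library could therefore not change the sign of this difference.

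For AGO2 against mouse, the 46 higher miRNA became 29 with no filter, and with a library left out they ranged from 31 to 62, and the 37 lower ones from 21 to 33. For bovine against mouse, the 36 lower miRNA became 69 with no filter and 60 with the filter of edgeR, and with a library left out they ranged from 19 to 51, and the 41 higher ones from 27 to 57. Without filters more miRNA were tested, and for the other changes the cause was not tested. miR-181a-5p in AGO2 ranged from -0.54 to 0.080 with a library left out. The call of miR-181b-5p in AGO2 was also lost with DESeq2 size factors in edgeR (-1.16, edgeR adjusted p = 0.0759) and with no filter (-1.45, edgeR adjusted p = 0.0823), and its adjusted p ranged from 0.0228 to 0.440. miR-181b-2-3p passed with DESeq2 size factors in edgeR (3.09, edgeR adjusted p = 0.0486), and its adjusted p ranged from 0.00366 to 0.514, while that of miR-181a-1-3p ranged from 0.00855 to 0.316. Over sized reads in place of summed counts, the guide sum was 63335 RPM in mouse and 29133 RPM in AGO2.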
